A study of Mus musculus with 8 samples.

Results

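The planar cell polarity genes described here are 10 genes, Vangl1, Vangl2, Celsr1, Celsr2, Celsr3, Prickle1, Prickle2, Scrib, Dvl2 and Ptk7, read on every probe set that the platform annotation assigned to a single one of them. All 10 genes were on the array, among 18193 genes in all, on 17 of the 34945 probe sets that named 1 gene. The arrays carried RNA of the genital tubercle, an outgrowth of the embryo from which penis and clitoris later develop, taken from FVB/N mouse embryos at embryonic day 14, Theiler stage 22, with no treatment named. The tubercle region was microdissected without pooling, the RNA was amplified in 2 rounds, and 4 male and 4 female samples were hybridized to 1 array each. The labels do not say whether samples came from separate litters, so p-values measure the spread between these arrays, which may be technical in part.

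Planar cell polarity is the alignment of cells within the plane of a tissue. Its core proteins form unequal complexes on opposite sides of each cell, with Frizzled and Dishevelled proteins on one side and Vangl and Prickle proteins on the other, and Celsr cadherins bridging the junction between neighbours. The pathway responds to Wnt ligands such as Wnt5a without beta-catenin, directs oriented cell movement, and is known for closing the neural tube, lengthening outgrowths such as the limb and orienting the cells of epithelia.

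All arrays had been scaled by the authors to a 2%-trimmed mean intensity of 1500.01. The median intensity was 184.4 to 206.6 on the female arrays and 211.7 to 249.4 on the male arrays, and the 18S ribosomal RNA control read 8332 to 18926 on female and 21050 to 33634 on male arrays. The Y-linked gene Eif2s3y read 31.1 to 70.9 on female and 4109 to 6136 on male arrays. Xist, the RNA of the inactive X chromosome, read 32465 to 35816 on female arrays and 230.0 to 619.6 on 3 male arrays, but 16036 on male replicate 3, so counts of called members are also given without that array. Of 6 genital tubercle markers Hoxd13, Isl1 and Shh were bright in both sexes, Tbx4 and Pitx1 dimmer, and Hoxa13 below the intensity filter described next. Their summed intensity was 94613 to 109610 in females and 80720 to 84252 in males, and 4 of the 5 tested markers were called lower in males by limma (Pitx1 the most, -1.03 ± 0.16, adjusted p = 0.000543), the direction of the called members; their part in the member differences was not tested. The tubercle holds several cell types, and fewer cells of a type cannot be told apart from less RNA per cell.

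The comparison of male with female tubercles gave lower male levels for Prickle2, Scrib, Ptk7 and Celsr1 and for 1 of the Vangl1 probe sets. Prickle1, Vangl2, Celsr2 and Dvl2 did not pass, and Celsr3 was too dim to test. Of the 17 probe sets, 11 lay above the intensity filter (a mean log2(intensity + 16) over all 8 arrays of at least 7.77) and were tested. With a limma adjusted p under 0.05 as the threshold, 5 of the 11 were called, 5 higher in females and 0 in males, and 6 had an unadjusted p under 0.05. Over all 22519 tested probe sets 40.5% were called, 21.9% higher in females and 18.7% higher in males, and the members' 45.5% is close to that background. The median male minus female difference was -0.45 over the 11 probe sets and -0.01 over all tested ones, on the log2(intensity + 16) scale used throughout, which understates the change of dim genes. On the brightest tested probe set of each gene the medians were close to each other, at -0.14 over 9 member genes and -0.12 over all tested genes. Every female array was above every male array for 5 of the 11 probe sets and every male above every female for 0, where the whole array had 21.2% and 15.8% (37.1% together). Counted as genes on their brightest tested probe set, 4 of 9 were called (44.4%), 4 of them higher in females, beside 42.2% of 11489 genes, 28.2% higher in females. Without male replicate 3, 4 of 11 probe sets and 3 of 9 genes were called, beside 7541 of 22519 probe sets over the array. Celsr1 was lost, and the sexes again did not overlap for 5 of the 11. Shares over the array are not given without that array for genes or for separate ranges. The 3 genes and the 5 probe sets without overlap therefore have no background here. With the 18S control level as a covariate, a level that separated the sexes, 0 of the 11 passed (limma adjusted p = 0.29 for Prickle2, 0.155 for Scrib, 0.34 for Ptk7, 0.843 for Celsr1 and 0.159 for Vangl1 1441097_at).

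**Figure D1:**
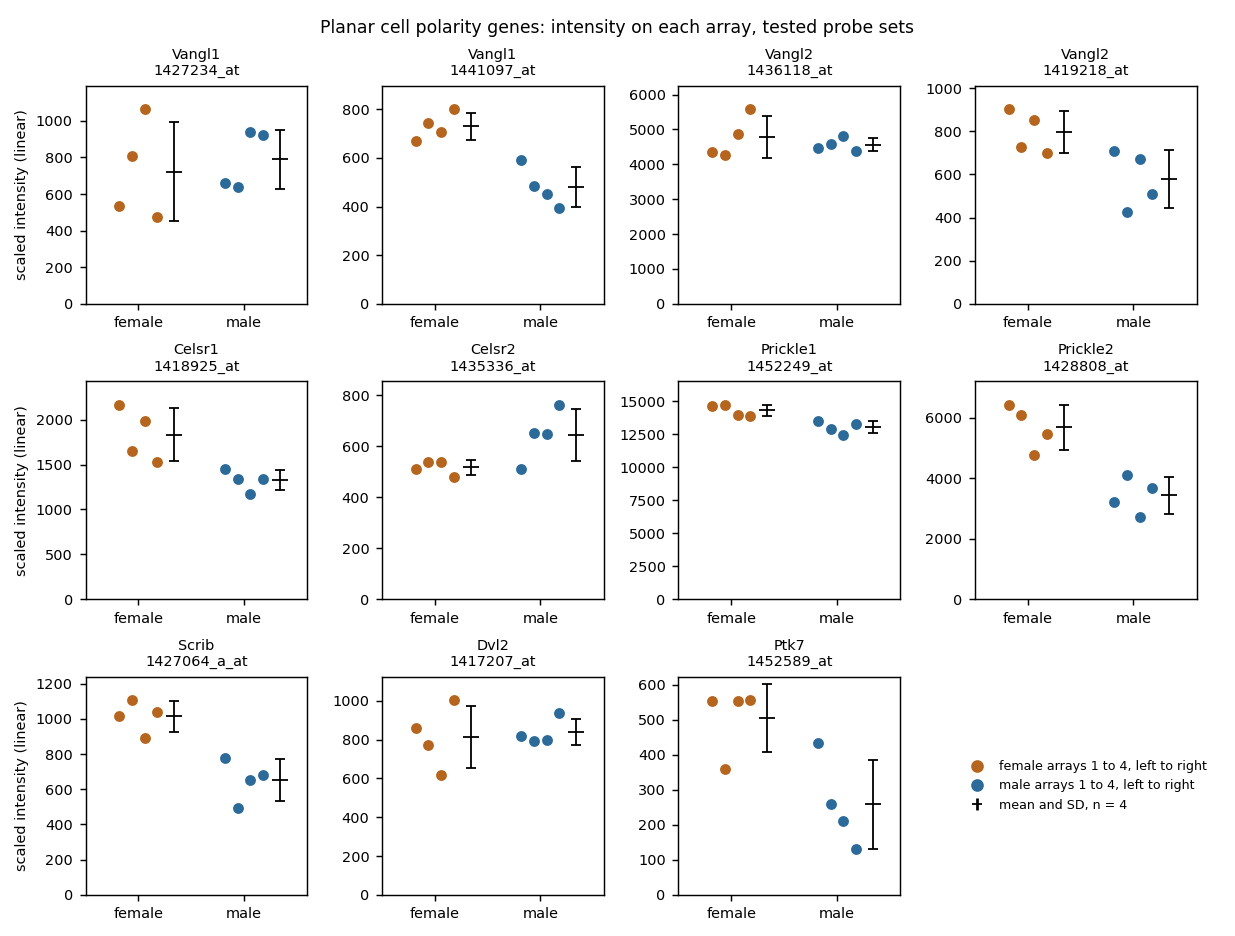
Scaled linear intensity of the 11 tested probe sets on each of the 4 female and 4 male arrays, with the mean and SD (n = 4) beside each group. The sexes do not overlap for Vangl1 1441097_at, Celsr1, Prickle1, Prickle2 and Scrib, and they overlap for the other 6.

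Vangl1 and Vangl2 encode the multi-pass membrane proteins that recruit Prickle to the cell border. Intensities are given in the order of replicates 1 to 4, an order that carries no meaning. Vangl1 probe set 1441097_at read 668.3, 745.4, 705.3 and 801.5 in females and 590.7, 486.3, 450.0 and 393.2 in males. Every female array was higher than every male array. The group means were 730.1 ± 57.05 and 480.0 ± 83.1 (SD, n = 4), and the difference was -0.60 ± 0.17 (SE, limma adjusted p = 0.015). The second Vangl1 probe set, 1427234_at, read 537.2, 808.6, 1065 and 476.9 in females and 662.3, 637.3, 938.8 and 922.8 in males. Here the male values lay inside the female range, and the difference of 0.18 ± 0.25 did not pass (limma adjusted p = 0.599, 95% confidence interval -0.37 to 0.72). It lay at -0.02 with array weights and at -0.07 with the 18S level as a covariate.

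Vangl2, the paralogue whose loss in mice causes an open neural tube, was read on 3 probe sets. The brightest, 1436118_at, read 4363, 4275, 4866 and 5586 in females and 4482, 4587, 4820 and 4376 in males. The sexes overlapped, and the difference of -0.06 ± 0.11 had a 95% confidence interval of -0.29 to 0.18 (limma adjusted p = 0.704). Probe set 1419218_at read 903.4, 728.2, 854.6 and 700.5 in females and 710.4, 427.7, 669.8 and 507.3 in males. Male replicate 1 exceeded the lowest female array and the other 3 males lay below all females. The difference of -0.47 ± 0.19 did not pass (limma adjusted p = 0.0679). It passed in 4 of its 17 alternatives, among them quantile normalization (-0.52, limma adjusted p = 0.0343) and the fit without male replicate 1 (-0.58, limma adjusted p = 0.0316), over a range of 0.0109 to 0.445. The dimmest Vangl2 probe set, 1455592_at, read 50.4 to 243.7 in females and 149.6 to 237.9 in males and was below the filter.

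Within Vangl1 and Vangl2 the tested probe sets differed in their sex difference by amounts that did not pass a test. The log2 ratio of 1441097_at to 1427234_at of Vangl1 was 0.08 ± 0.56 in females and -0.69 ± 0.50 in males (SD, n = 4), a change of -0.78 (exact permutation test, two-sided, p = 0.114, adjusted over the 2 pairs 0.143). For Vangl2 the ratio of 1419218_at to 1436118_at was -2.56 ± 0.30 and -2.97 ± 0.32, a change of -0.41 (exact permutation test, two-sided, p = 0.143, adjusted 0.143). The smallest p this test allows with 4 against 4 arrays is 0.0286.

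Celsr1, Celsr2 and Celsr3 encode the mammalian Flamingo cadherins, large adhesion receptors that join the polarity complexes of adjacent cells. Celsr1 (1418925_at) read 2167, 1646, 1987 and 1527 in females and 1452, 1336, 1176 and 1335 in males. All females were above all males, with female replicate 4 and male replicate 1 closest to each other. The means were 1832 ± 297 and 1325 ± 113, a difference of -0.45 ± 0.15 (limma adjusted p = 0.0272). The call ended without any 1 of 4 arrays, female replicates 1 and 3 and male replicates 2 and 3 (limma adjusted p = 0.0875, 0.082, 0.0505 and 0.0706), and the range over the 18 alternatives was 0.0101 to 0.843.

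Celsr2 (1435336_at) lay in the other direction. It read 511.2, 537.0, 538.8 and 478.4 in females and 510.0, 650.9, 649.3 and 762.5 in males. Of the male arrays, 3 exceeded all females and replicate 1 lay within the female range. The difference of 0.30 ± 0.17 did not pass (limma adjusted p = 0.18, 95% confidence interval -0.07 to 0.66). A second Celsr2 probe set, 1422073_a_at, read 56.9 to 137.3 in females and 18.3 to 160.3 in males, below the filter. Celsr3, which guides growing axons, was read on 1425067_at alone at 9.82, 49.1, 13.6 and 12.5 in females and 15.5, 13.5, 34.2 and 173.4 in males. These values are near the bottom of the array, with female replicate 2 and male replicate 4 apart from their groups. Without a filter the Celsr3 difference of 0.66 ± 0.56 did not pass (limma adjusted p = 0.47).

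Prickle1 and Prickle2 encode cytoplasmic LIM-domain proteins that bind Vangl. Prickle2 (1428808_at) had the smallest adjusted p of the family. It read 6443, 6092, 4760 and 5482 in females and 3215, 4127, 2712 and 3695 in males. The lowest female array stood above the highest male array. The means were 5694 ± 739 and 3437 ± 611, so that males had 0.604 times the female mean, and the difference was -0.73 ± 0.14 (limma adjusted p = 0.00191, 95% confidence interval -1.04 to -0.42). The Prickle2 call held without each array in turn, with differences of -0.83 to -0.63 and a highest limma adjusted p of 0.00779.

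Prickle1 (1452249_at) was bright and nearly level. It read 14629, 14739, 13978 and 13905 in females and 13493, 12864, 12452 and 13297 in males. Females were all above males, yet the means of 14313 ± 432 and 13026 ± 465 differed by only -0.14 ± 0.07 and did not pass (limma adjusted p = 0.123, 95% confidence interval -0.28 to 0.01). A pair of dim Prickle1 probe sets lay below the filter. Probe set 1442172_at read 153.2 to 269.6 in females and 115.5 to 240.2 in males, and 1444759_at read 36.0 to 112.9 and 98.3 to 145.5.

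Dvl2 encodes a Dishevelled protein, the cytoplasmic partner of Frizzled that serves both this pathway and beta-catenin signalling. Its probe set 1417207_at read 859.5, 773.2, 620.1 and 1004 in females and 821.5, 795.0, 797.6 and 937.1 in males. The male values lay within the female range, and the difference of 0.06 ± 0.17 did not pass (limma adjusted p = 0.81, 95% confidence interval -0.31 to 0.43). The other Dvl2 probe set, 1448616_at, read 10.4 to 77.8 in females and 4.39 to 93.8 in males, below the filter.

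Scrib encodes a large scaffold of the basolateral membrane that binds Vangl2 and also sets apical-basal polarity. Probe set 1427064_a_at, whose suffix marks probes shared between transcripts of a gene, read 1017, 1106, 892.9 and 1039 in females and 778.1, 494.5, 651.6 and 681.3 in males. There was no overlap between the sexes. The means were 1014 ± 89.1 and 651.4 ± 118, a difference of -0.64 ± 0.17 (limma adjusted p = 0.0104). Leaving out each array kept the Scrib call, with differences of -0.73 to -0.52 and a highest limma adjusted p of 0.0325.

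Ptk7 encodes a receptor with an inactive kinase domain that takes part in vertebrate planar polarity and Wnt signalling. Probe set 1452589_at read 554.6, 361.0, 553.1 and 556.5 in females and 433.0, 259.9, 210.2 and 132.2 in males. Female replicate 2 lay below male replicate 1, the only overlap. The means were 506.3 ± 96.9 and 258.8 ± 127, a male level of 0.511 times the female one, and the difference of -1.02 ± 0.30 was the largest of the 11 tested probe sets (limma adjusted p = 0.0183). Its 95% confidence interval ran from -1.68 to -0.36. Without 1 array at a time it stayed called, between -1.29 and -0.76, at a limma adjusted p of up to 0.0493.

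**Figure D2:**
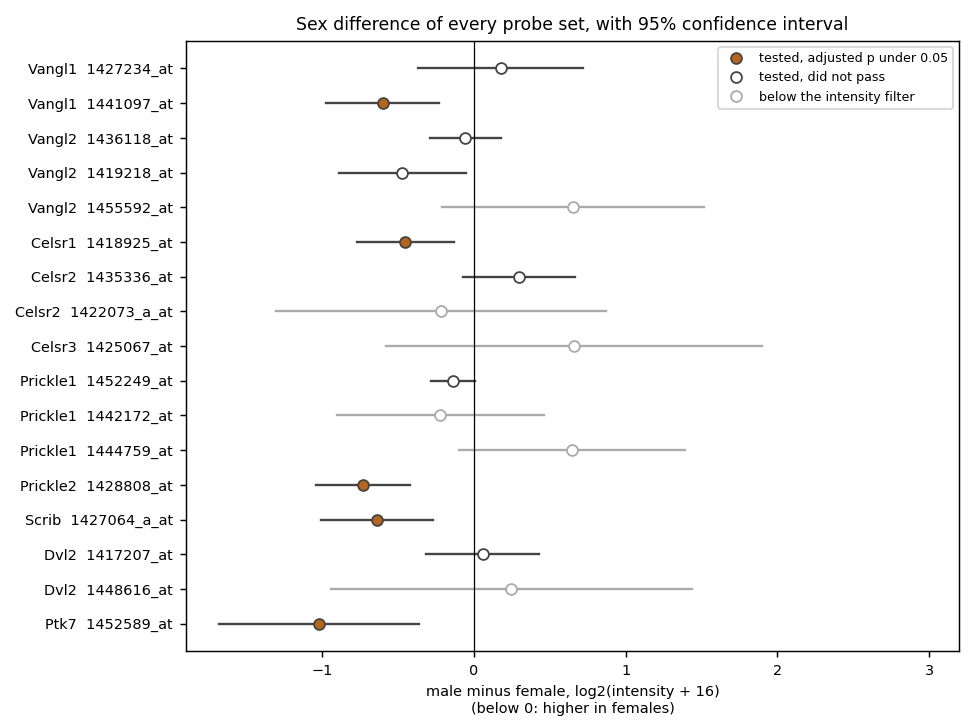
Male minus female difference on the log2(intensity + 16) scale for all 17 probe sets, with 95% confidence intervals of the limma fit; filled points passed an adjusted p of 0.05 and grey ones were below the intensity filter and come from the fit without it. The 5 filled points lie between -1.02 and -0.45, and the intervals of all 6 dim probe sets cross 0.

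The 6 probe sets below the filter add no call. In the limma fit without a filter, where 19.4% of 45037 probe sets were called, 0 of these 6 passed, with adjusted p between 0.218 (Prickle1 1444759_at, 0.65 ± 0.34) and 0.809 (Celsr2 1422073_a_at, -0.22 ± 0.49), and 0 had an unadjusted p under 0.05. The sexes overlapped on all 6, where 8.91% of all 22518 probe sets below the filter had separate ranges.

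Promoter sequence was read for the called members Prickle2 and Ptk7 and, as the paralogue that did not pass, for Prickle1. RefSeq's promoter table (GRCm38.p6) matched 7 of the 10 genes with 11 start sites. The 250 bases before the most upstream of each gene's listed start sites are shown 5′ to 3′ on the minus strand, with capitals on 3 motifs, each searched on both strands. GC boxes, bound by Sp factors, were searched as GGGCGG. The box named after its letters CCAAT was searched as such. The core of Tcf and Lef sites was searched as CTTTG. The Ptk7 and Prickle1 windows lie within longer models of their own genes, and the 5′ end of the Prickle2 gene model falls inside its window.
Prickle2, chr6:92706185-92706434: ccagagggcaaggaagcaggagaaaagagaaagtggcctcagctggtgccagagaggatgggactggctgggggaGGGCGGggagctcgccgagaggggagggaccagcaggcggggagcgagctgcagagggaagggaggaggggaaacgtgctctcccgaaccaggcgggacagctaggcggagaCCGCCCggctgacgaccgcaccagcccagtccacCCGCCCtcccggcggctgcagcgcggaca
Ptk7, chr17:46629505-46629754: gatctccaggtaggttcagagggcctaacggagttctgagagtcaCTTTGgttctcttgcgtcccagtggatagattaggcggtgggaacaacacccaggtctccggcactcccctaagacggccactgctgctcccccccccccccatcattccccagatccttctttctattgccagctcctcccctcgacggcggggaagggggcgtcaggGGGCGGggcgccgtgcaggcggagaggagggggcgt
Prickle1, chr15:93595903-93596152: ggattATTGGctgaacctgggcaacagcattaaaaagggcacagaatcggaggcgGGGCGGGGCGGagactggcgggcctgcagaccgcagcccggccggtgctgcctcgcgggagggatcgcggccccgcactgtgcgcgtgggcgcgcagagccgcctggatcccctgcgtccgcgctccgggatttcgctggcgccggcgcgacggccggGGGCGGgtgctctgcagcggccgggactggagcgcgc
GC boxes were found 3 times in the Prickle2 window, 1 time in that of Ptk7 and 3 times in that of Prickle1, 2 of the last overlapping, and 32.7% of the 32817 windows of the table hold at least 1. A CCAAT box was present only in the Prickle1 window of these 3, as in 33.8% of all windows, and a CTTTG core only in the Ptk7 window, as in 48.6%. The GC content was 70% for Prickle2, 64% for Ptk7 and 74% for Prickle1, beside a median of 52.4%, and the CpG counts were 18, 14 and 34, beside a median of 6. Prickle2 has 3 further listed start sites, whose windows are not GC-rich, with a GC content of 46.4%, 48.4% and 50.8% and 4, 4 and 5 CpGs. They hold 4, 3 and 0 CTTTG cores and 0, 0 and 2 CCAAT boxes, so the absence of both applies to the printed Prickle2 window alone. The TATA box, TATAAA, was in 0 of the 11 member windows (12.4% of all). The core AGAACA, to which androgen and glucocorticoid receptors bind, was in the Celsr3 window alone of the 11 (16.1% of all). These counts describe the letters of the windows and not the binding of any factor.

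The 18S control level moved with sex. Its log2 value was 13.63 ± 0.49 in females and 14.68 ± 0.30 in males (SD, n = 4; p = 0.0286 by an exact two-sided permutation test, which can go no lower here, and 0.0572 adjusted over 4 array measures), and the median log2 value of the array had the same p-values. The 3′ to 5′ differences of the Gapdh and Actb controls gave 0.257 and 0.6. With the 18S level as a covariate 0 of the 11 member probe sets passed the limma threshold, beside 414 of 22519 over the array. The differences were then -0.96 ± 0.55 for Ptk7, -0.82 ± 0.31 for Scrib, -0.82 ± 0.31 for Vangl1 1441097_at, -0.48 ± 0.25 for Prickle2 and -0.11 ± 0.25 for Celsr1. Scrib and Vangl1 thus had larger differences and larger standard errors than without the covariate, while that of Celsr1 was near 0. Because the level follows sex, a sex effect and an 18S effect cannot be told apart here. Without both male replicates 1 and 3, the arrays with the highest 18S level, 5 of the 11 passed, beside 7951 of 22519 over the array. Celsr1 was lost (-0.44, limma adjusted p = 0.0661) and Vangl2 1419218_at was gained (-0.75, limma adjusted p = 0.0121).

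**Figure D3:**
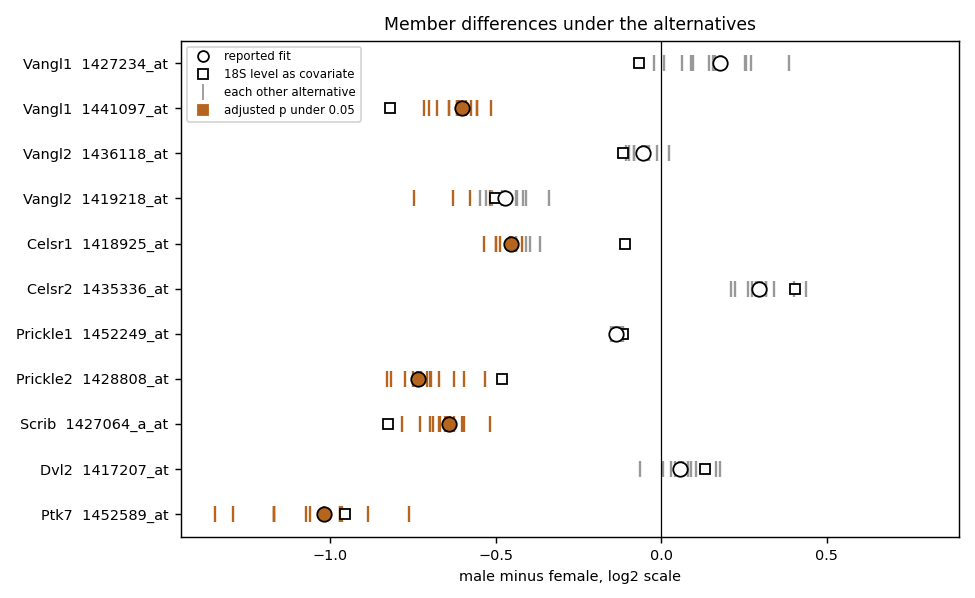
Male minus female difference of the 11 tested probe sets in the reported fit (circles), with the 18S level as a covariate (squares) and in each other alternative (ticks); orange marks an adjusted p under 0.05. Ptk7, Scrib, Prickle2 and Vangl1 1441097_at keep their call in every alternative in which they were tested except the 18S covariate, and Celsr1 loses it in 6.

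Several polarity proteins act in epithelia, so the epithelial markers are given beside these results. All 13 were tested, 5 were higher in females and 1 in males, and the summed intensity overlapped between the sexes, at 59870 to 69241 in females and 59619 to 65323 in males. The pan-epithelial gene Epcam differed by 0.02 ± 0.08 and Cdh1, which encodes E-cadherin, by -0.07 ± 0.10, and neither passed (limma adjusted p = 0.834 and 0.575). The keratin genes Krt8 (-1.15 ± 0.19), Krt18 (-0.90 ± 0.16), Krt14 (-0.92 ± 0.17) and Krt5 (-0.75 ± 0.13) and the claudin gene Cldn6 (-1.07 ± 0.29) fell in males, and Trp63, a factor of stratified epithelium, rose (0.48 ± 0.08). Summed markers of other cells were higher on every male array than on every female array, at 20072 to 30816 against 7049 to 17219 for 9 skeletal muscle genes, 11733 to 16154 against 8876 to 10565 for 10 neuronal genes, and 9918 to 12231 against 7944 to 9518 for 7 endothelial genes. They overlapped for 7 macrophage genes (3874 to 4616 in males, 3100 to 3908 in females) and 3 Schwann cell and neural crest genes (3395 to 5484 and 4981 to 6061). Of these lists 9, 5, 6, 4 and 2 genes were tested, in the order given. Called higher in males were 7, 4, 3, 1 and 0 of them, and higher in females 0, 0, 1, 1 and 0. The endothelial gene higher in females was Cdh5 (-0.57 ± 0.11, limma adjusted p = 0.00165). Of the untested neuronal genes Tubb3, Elavl3 and Th had lower means in males, and Prph and Snap25 higher ones. The untested endothelial gene Tie1 and the untested macrophage genes C1qa, C1qb and Aif1 had lower means in males. Foxd3, untested in the Schwann cell and neural crest list, had a higher one. No marker was at 0 in either sex, and the part of cell composition in the member differences was not tested.

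The other genes of the pathway numbered 43, of which 40 had a probe set of their own and 39 were tested. On their brightest tested probe set 2 were higher in males, 15 higher in females and 22 did not pass, a called share of 43.6% beside 42.2% of all tested genes. Brightest probe sets leaned to females over the whole array too, with 28.2% of all tested genes higher in females and 14.0% higher in males. Without male replicate 3, 14 of the 39 pathway genes were called, with no share over all genes given for that setting. The median difference of the 39 genes was -0.25, beside -0.12 over all genes. Over all 86 tested probe sets of these genes it was -0.04, beside -0.01 over the array. Of the 86, 20 were called higher in females and 18 higher in males, or 44.2% beside 40.5% over the array. Among ligands and receptors 4 of 10 genes were called on their brightest probe set, all higher in females. But over all 20 tested probe sets of these genes 5 were called higher in females and 4 higher in males, or 45%. Wnt5a itself did not pass on its brightest probe set (-0.07 ± 0.06, limma adjusted p = 0.35) or on 1437673_at (0.17 ± 0.12, limma adjusted p = 0.3). On the brightest every female was nevertheless above every male, at 24524 to 24834 against 22132 to 24496. The dimmer Wnt5a probe sets 1448818_at and 1456976_at rose in males (0.96 ± 0.30 and 0.84 ± 0.30, limma adjusted p = 0.0214 and 0.0422). The sexes overlapped on 1456976_at. The rise of 1448818_at was uneven, with males at 9818, 3720, 8810 and 3606 in the order of replicates and the highest female at 3426. Male replicates 1 and 3 were also the arrays with the highest 18S level. The largest difference was that of the ligand gene Wnt5b, which read 815.5, 798.0, 815.1 and 1085 in females and 546.4, 384.1, 357.9 and 458.4 in males (-0.99 ± 0.19, limma adjusted p = 0.00155). The sexes did not overlap there, although the suffix of this probe set (1439373_x_at) marks probes prone to cross-hybridization and the second Wnt5b probe set did not pass (-0.26 ± 0.25, limma adjusted p = 0.418). The receptor genes Ror1 and Ror2, which bind Wnt5a, differed by 0.03 ± 0.12 and -0.11 ± 0.14 and did not pass (limma adjusted p = 0.857 and 0.559). Wnt5a, Ror1, Ror2 and the Fat4 probe set below were chosen for mention after their values were seen.

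In the cytoplasmic group of core proteins and adaptors 7 of 11 genes were called on their brightest probe set (63.6%, beside 42.2% of all tested genes). Of the 7, 6 were higher in females and 1 in males, where 28.2% and 14.0% of all tested genes were. Over all 27 tested probe sets of this group 8 were called higher in females and 4 higher in males, or 44.4% beside 40.5% over the array. Sec24b, a coat protein that carries Vangl2 out of the endoplasmic reticulum, read 2669, 2393, 2699 and 2532 in females and 1623, 1600, 1631 and 1310 in males. Its ranges were well apart (-0.74 ± 0.12, limma adjusted p = 0.000781). Sestd1, a lipid-binding partner of Vangl2, was the 1 gene of this group higher in males, with means of 12374 ± 707 in females and 14983 ± 1293 in males (0.27 ± 0.08, limma adjusted p = 0.0187). Its call ended without female replicate 1, male replicate 2 or male replicate 4 (limma adjusted p = 0.0592, 0.0611 and 0.0512, range over 18 alternatives 0.0036 to 0.291). The other tested Sestd1 probe set lay in the opposite direction, at -0.30 ± 0.12, and did not pass (limma adjusted p = 0.0667). On it every female was above every male, at 2401 to 3108 against 1959 to 2309. Dvl1, the other tested Dishevelled gene, fell from 11291 ± 1291 to 8462 ± 860 (-0.41 ± 0.10, limma adjusted p = 0.00771) and was named after its value was seen. The second Dvl1 probe set, 1450978_at, had overlapping sexes and did not pass (-0.39 ± 0.18, limma adjusted p = 0.0965).

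Smaller groups link planar polarity to cilia, to the Fat and Dachsous system and to the Scribble module. They are again counted on brightest probe sets, beside 42.2% of all tested genes called, 28.2% higher in females and 14.0% higher in males. Of 4 ciliogenesis effectors 2 were higher in females and 0 in males. In the Fat and Dachsous branch 1 of 3 was called, while a second probe set of Fat4, 1459749_s_at, was called on the male side (0.50 ± 0.17, limma adjusted p = 0.0325) with overlapping sexes. The called gene was Dchs1, a giant cadherin that pairs with Fat4, at 674.4, 644.4, 579.6 and 696.6 in females and 365.3, 346.9, 355.3 and 242.5 in males, every female above every male (-0.97 ± 0.18, limma adjusted p = 0.0017). In the Scribble module 1 of 3 was called, Llgl1, a partner of Scrib in basolateral polarity. It read 16139, 16615, 15240 and 16016 in females and 10275, 8445, 9124 and 8620 in males (-0.81 ± 0.08, limma adjusted p = 5.86e-05). Llgl1 was the 1 gene of the 39 that also passed with the 18S level as a covariate (-0.92 ± 0.15, limma adjusted p = 0.0194, range over 18 alternatives 7.95e-06 to 0.0194).

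Cytoskeletal effectors, which turn the polarity signal into actin and myosin changes, gave 1 call in each direction among 8 genes on brightest probe sets. That was 25%, beside 42.2% of all tested genes, with a median of 0.02. Over all 25 tested probe sets of these genes 9 were called higher in males and 3 higher in females, with a median of 0.24. The called share was 48%, beside 40.5% over the array, where 18.7% were higher in males and 21.9% higher in females. Of the 9 male calls 4 were of Rock1 and 2 of Mapk8. Mapk8, which encodes the kinase Jnk1, rose from 4250 ± 508 to 5782 ± 851 (0.44 ± 0.13, limma adjusted p = 0.0176) and missed the threshold without female replicate 1 or male replicate 3 (limma adjusted p = 0.0552 and 0.0564, range over 18 alternatives 0.00386 to 0.614). Of its 4 other tested probe sets, 1437045_at rose in males without overlap (1.55 ± 0.28, limma adjusted p = 0.00119) and the other 3 did not pass, 1440856_at among them (0.29 ± 0.14, limma adjusted p = 0.121). The rise of 1437045_at was uneven, with males at 3051, 1525, 2527 and 1521 in the order of replicates. Daam2, a formin that binds Dishevelled, was lower in males (-0.56 ± 0.21, limma adjusted p = 0.0469), with overlapping sexes. Its call ended without any 1 of 5 arrays, female replicates 1, 2 and 3 and male replicates 2 and 3 (limma adjusted p = 0.12, 0.113, 0.104, 0.118 and 0.119), and in 10 of its 17 alternatives in all, over a range of 0.0144 to 0.631, and its other probe set was also called (-0.79 ± 0.22, limma adjusted p = 0.0144).

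**Figure D4:**
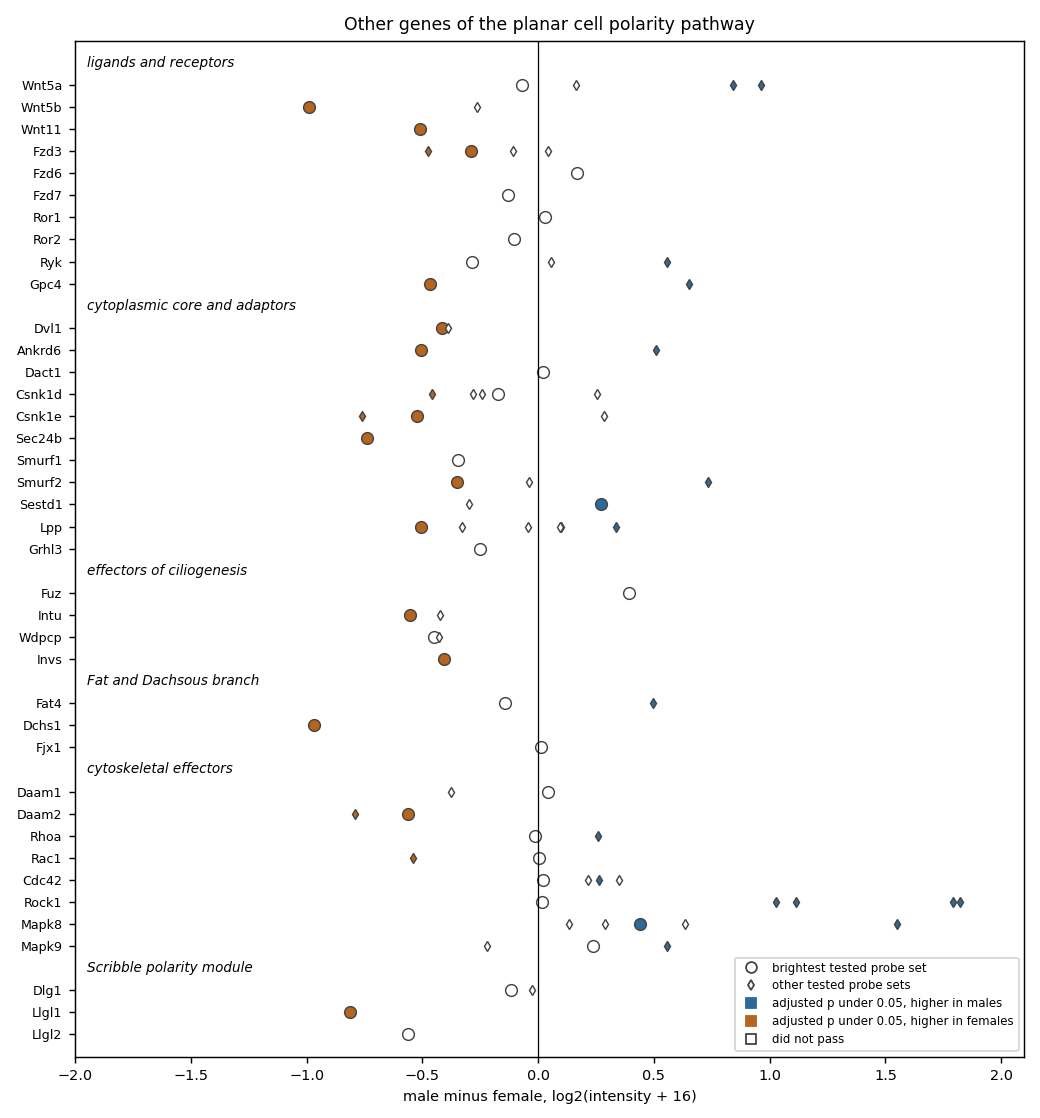
Male minus female difference on the log2(intensity + 16) scale for the 39 other pathway genes by role, with circles for the brightest tested probe set of each gene and diamonds for its other tested probe sets. Among the circles 15 are called higher in females and 2 higher in males, where 28.2% and 14.0% of all tested genes were. Among all 86 probe sets 20 and 18 are, where 21.9% and 18.7% of all tested probe sets were.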

How the data were processed

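RNA of 4 male and 4 female tubercle samples was measured on Affymetrix MOE430 arrays. The authors' deposited values are linear intensities made with GCOS, per the submitters' processing notes (version not given in the sources used here), and scaled to 1 trimmed mean, so they were not normalized again. The table held 45101 probe sets; 64 controls were left out. A single gene was named for 34945 of the rest, several for 932 and none for 9160. Intensities were transformed as log2(intensity + 16), and the 22519 probe sets at or above the median of the mean values (7.77) were tested with limma 3.58.1 (R 4.3.3; lmFit and eBayes, trend = TRUE, a design with sex alone); p-values were adjusted over all of them by Benjamini-Hochberg. Each gene outside the family was represented by its brightest tested probe set; up to 5 called pathway genes in each direction were named. Array measures and probe-set ratios had exact permutation tests (scipy 1.17.1). The method was tested on simulated data. The members, lists and alternatives were chosen with earlier results of these data known; the probe-set ratios were added after seeing the data. The number of arrays limits precision. Among 28 pairs of arrays 0 were identical. Alternatives were quantile normalization, pseudocounts of 1 and 64, other filters, variance models and weights per array, blocking on the replicate number, the 18S covariate, the mean of a gene's probe sets and leaving out arrays.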

Additional observations from a re-analysis of the deposited data

Results flagged for a closer look

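In 3 of 42 groups of 4 arrays a single array lay far from the other 3, with a gap to the nearest array of 0.871 to 0.983 of the group's range, above Dixon's 95% critical value; chance flags about 5% of groups. Ptk7 1452589_at read 360.97 on female replicate 2 against 553.1 to 556.5 on the other female arrays, and without that array the difference was -1.17 ± 0.32 (limma adjusted p = 0.0164, range over 17 alternatives 0.0028 to 0.34). Celsr3 1425067_at read 49.08 on female replicate 2 and 173.43 on male replicate 4, both on a probe set below the intensity filter.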

How the results depend on the processing

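Under 18 alternatives the count of member probe sets called higher in males stayed at 0, and that higher in females stayed between 4 and 6 without each array. With the 18S covariate the counts fell to 414 probe sets over the array (60.6% of them higher in males, beside 46.1%), 0 member probe sets, 0 member genes and 1 other pathway gene. At the upper-quartile filter fewer probe sets were tested. There 5890 of 11260 probe sets were called over the array, with 2 of 4 member probe sets and 2 of 4 member genes. Signs turned for values that did not pass: Vangl1 1427234_at was -0.068 with the 18S covariate and -0.0225 with array weights, Vangl2 1436118_at was 0.022 without female replicate 4, in a range of -0.11 to 0.022 over the left-out arrays, and Dvl2 1417207_at was -0.063 without female replicate 3, in a range of -0.063 to 0.16. Leaving out 1 array gave 7321 to 9454 probe sets over the array, 3 to 4 member genes and 12 to 19 other pathway genes. Same-numbered male and female arrays had correlations of -0.13 to 0.04 in their deviations from the group means, and 1 of 4 female arrays correlated best with its own number, so the numbers were not taken as pairs. With the replicate number as a block 8460 probe sets, 5 member probe sets, 4 member genes and 15 other pathway genes were called. Single probe sets were followed through the alternatives for the members and for the brightest of Mapk8, Sestd1, Wnt5b, Dchs1, Llgl1, Sec24b and Daam2. Of those called without the block Daam2 1455717_s_at alone was lost (limma adjusted p = 0.078). Quantile normalization left the median difference of all genes at -0.13, beside -0.12. Dim probe sets had wide intervals, as for Celsr3 (95% confidence interval -0.58 to 1.90). The causes of these changes were not tested.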

Other observations

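Probe sets of the same pathway gene often differed in their call. How often this happens among all genes of the array was not counted, so it cannot be read as a trait of the pathway. Of 24 other pathway genes with at least 2 tested probe sets, 10 had at least 2 called ones, and 4 of these, Gpc4, Ankrd6, Smurf2 and Lpp, had calls in both directions. The brightest Gpc4 probe set was lower in males (-0.47 ± 0.11, limma adjusted p = 0.00595) and the other was higher (0.65 ± 0.10, limma adjusted p = 0.00053). Gpc4 encodes a glypican that binds Wnt ligands at the cell surface.

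Rock1, which encodes a kinase that activates myosin, was named after its values were seen. Its brightest probe set, 1450994_at, read 14816 ± 882 in females and 15014 ± 1337 in males (SD, n = 4), a difference of 0.02 ± 0.08 that did not pass (limma adjusted p = 0.889). The other 4 tested Rock1 probe sets were all called higher in males, by 1.03 to 1.82. Among them 1423445_at read 4044, 3992, 4687 and 4424 in females and 7819, 10045, 10785 and 8725 in males, with no overlap (1.11 ± 0.11, limma adjusted p = 5.86e-05). The largest rises, of 1423444_at and 1460729_at, were uneven. Males read 4090, 1783, 3500 and 1913 on the first and 2741, 848.0, 1502 and 862.0 on the second. Male replicates 1 and 3, the highest on both, also had the highest ribosomal RNA control level. On 1441162_at those arrays were the lowest of the males. The part of that level in the Rock1 differences was not tested.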
